A study of Homo sapiens with 38 samples.

Results

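RNA from HCT116 cells, a human colorectal carcinoma line, was compared between cells that had lost both VPS4 paralogs and cells that had lost VPS4A alone. The 8 libraries were chosen by their labels, 4 of siVPS4A+B#2 and 4 of siVPS4A#1, out of 38 libraries of 9 conditions. siVPS4A+B#2 cells received 30 nM of siVPS4A#1 and 30 nM of siVPS4B#2. siVPS4A#1 cells received 30 nM of the same VPS4A duplex and 30 nM of the non-targeting duplex siCTRL#1, so that the libraries differ by siVPS4B#2 in place of siCTRL#1. All cells were collected 72 h after transfection, and transcripts were read on an amplicon panel of human genes. All 12627 listed genes were tested in both directions.

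VPS4A and VPS4B are closely related AAA ATPases that disassemble ESCRT-III, a polymer of CHMP proteins that cuts membrane necks from the inside. ESCRT-III and VPS4 act in the sorting of receptors into multivesicular endosomes, in the separation of daughter cells, in nuclear envelope sealing and in membrane repair. Either paralog can serve these reactions, and VPS4B lies on chromosome arm 18q, which is often lost in colorectal cancer.

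The replicate number marks a batch in the labels. Numbers 1, 3 and 4 are in both groups, batch b (number 2) holds siVPS4A+B#2 and not siVPS4A#1, and batch e (number 5) the reverse. A further library labelled siVPS4A#1 replicate 2 was left out. It held 669257 reads, against 5090666 to 8414939 in the siVPS4A+B#2 libraries and 7453670 to 8626787 in the siVPS4A#1 libraries. It had 7 reads of VPS4A and 1 read of VPS4B, and 169 of BIRC3, 188 of CXCL8 and 4 of SPARC. Across 9563 genes its deviations from the mean library had a correlation of -0.095 with those of its labelled group, 0.279 with those of siVPS4A+B#2 and 0.655 with those of siVPS4A+B#1, which goes against its label. For the main gene lists, counts with this library kept are given beside the result. The study describes its RNA-Seq replicates as independent experiments.

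VPS4B, the target of the added duplex, fell in every library that received it. This gene, NM_004869 on the minus strand of chromosome 18 of GRCh37 from 61056423 to 61089716, stood at 24.4, 21.4, 32.1 and 26.4 CPM (reads per 1000000 reads of a library) in the siVPS4A#1 libraries (replicates 1, 3, 4 and 5) and at 1.52, 1.49, 1.28 and 0.842 in the siVPS4A+B#2 libraries (replicates 1 to 4). The groups did not overlap, and each siVPS4A+B#2 library rested on 7 to 9 reads. The difference was -3.47 ± 0.21 on the log2 scale (SE, adjusted p = 3.2e-16, limma with Benjamini-Hochberg adjustment) and had an exact permutation p of 0.0286, the smallest that 4 against 4 allow. Here and below, levels are CPM scaled by trimmed means (TMM), and log2 fold changes are on the log2 scale of these levels plus 1, which draws low genes toward 0.

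VPS4A, the paralog silenced on both sides (NM_013245, plus strand of chromosome 16, 69345253 to 69360842), was low in all 8 libraries. It stood at 3.52, 1.63, 1.88 and 1.71 in siVPS4A#1 and at 3.04, 7.68, 4.32 and 5.05 in siVPS4A+B#2, where siCTRL#1 cells had 190.0 ± 14.0 (SD, n = 5). The groups overlapped in replicate 1 of each, on 33 and 18 reads. The residual was higher with both duplexes by 0.87 ± 0.24 (SE, adjusted p = 0.00527, limma), while the exact permutation p was 0.0571 and the adjusted p was 0.132 in a limma fit of these 8 libraries alone and 0.303 with the left-out library kept. The part of this residual in the results below was not tested.

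Adding siVPS4B#2 raised 1079 genes, 8.55% of all tested, and lowered 1128, or 8.93%, where a call needed a change of 1.5 times or more with adjusted p below 0.05 in limma. These shares are the measure to set beside the counts of listed genes below. In bulk RNA a change in the number of cells with a transcript and a change in its amount per cell cannot be told apart. The median log2 fold change was 0.81 among raised genes and -0.77 among lowered genes, and 48 genes rose but 10 fell by at least 2 log2 units. Of all genes, 2833 (22.4%) did not overlap between the groups in either direction, and these included 876 of the raised and 852 of the lowered genes. Within the 3 shared batches, 1034 raised genes were higher and 1079 lowered genes were lower in every pair. The genes were called from these same libraries, so this agreement follows in part from the call. The split depends on the scaling. With total reads in place of TMM the median gene moved to -0.14, and 649 genes rose and 1863 fell (25.8% of calls raised, against 48.9%). With the left-out library kept, 851 rose and 635 fell. That fit gave smaller changes that stayed called for the genes described first, with 5.00 for HMOX1, 3.83 for BIRC3, 3.07 for CXCL8, 2.62 for HMGCS1, 2.21 for SQSTM1 and -2.76 for SPARC.

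The gene with the largest increase was HMOX1, which encodes heme oxygenase 1, the inducible enzyme that breaks down heme. This gene (plus strand of chromosome 22, 35776354 to 35790207) stood at 66.6, 93.6, 96.7 and 102 in siVPS4A#1 libraries and at 2640, 4321, 5449 and 3152 in siVPS4A+B#2 libraries. Every double library was far above every single one. The log2 fold change was 5.47 ± 0.17 (SE, adjusted p = 3.92e-26, limma), and the values within batches 1, 3 and 4 were 5.29, 5.85 and 5.01. Cells with siVPS4B#2 alone had 74.5 ± 12.2 (SD, n = 4), and siCTRL#1 cells 46.0 ± 6.62 (SD, n = 5).

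BIRC3, TNFRSF9 and CXCL8 followed. BIRC3, the ubiquitin ligase cIAP2 of TNF receptor complexes (plus strand of chromosome 11, 102188215 to 102210134), stood at 7.14, 5.01, 10.9 and 7.45 in siVPS4A#1 libraries and at 221, 307, 287 and 240.0 in siVPS4A+B#2 libraries. Its log2 fold change was 4.95 ± 0.21 (SE, adjusted p = 5.93e-21), and siVPS4B#2 alone left it at 9.33 ± 0.967 (SD, n = 4). TNFRSF9, a receptor of the TNF family also known as CD137, went from 6 to 9 reads per single library to 179 to 420 reads per double library. CXCL8, the neutrophil chemokine IL-8, stood at 2.45, 4.39, 2.54 and 2.32 and then at 97.5, 99.7, 56.9 and 100.4, with replicate 3 the highest of the single and the lowest of the double libraries. Its log2 fold change was 4.51 ± 0.25 (SE, adjusted p = 2.53e-17, limma). Neither group overlapped for any of these 3 genes.

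Among the other genes with the largest increases were SLCO2B1, a transporter of organic anions, with 2, 0, 0 and 0 reads in single and 37, 28, 111 and 90 reads in double libraries. NR4A1, an orphan nuclear receptor of the immediate-early class, rose by 3.05, and CYP4F3, a cytochrome that inactivates leukotrienes, rose by 3.01. CD68, a lysosomal glycoprotein used as a macrophage marker, rose by 2.96, and EID3 by 2.71.

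Many genes of the NF-kB pathway rose. In this pathway, inhibitors such as NFKBIA hold dimers of RELA, REL, RELB, NFKB1 and NFKB2 in the cytoplasm until kinases release them, and the dimers then switch on their own inhibitors. Of 21 listed subunits and inhibitors 12 were raised and 0 lowered, with a median of 0.82 where the median of all genes was 0.00, and 10 were raised with the left-out library kept. Among the subunits, RELB stood at 17.7 to 27.3 in single and 97.4 to 127 in double libraries and rose by 2.33 ± 0.17 (SE, adjusted p = 4.14e-14, limma). NFKB2, the p100 precursor that pairs with RELB, rose by 1.45, REL by 1.40 and NFKB1 by 1.38. RELA, an activating subunit, had a log2 fold change of 0.33 and did not pass the threshold.

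Among the inhibitors, NFKBIA stood at 75.8, 87.5, 68.2 and 87.1 in single and at 361, 320.2, 258 and 373 in double libraries, with no overlap. It rose by 2.00 ± 0.17 (SE, adjusted p = 2.92e-12, limma), with 2.24, 1.55 and 2.43 within batches 1, 3 and 4. TNFAIP3, the ubiquitin-editing enzyme A20, rose by 1.99 ± 0.23 (SE, adjusted p = 1.16e-08) from 0.627 to 2.35 CPM up to 5.55 to 11.8 CPM. TNIP1, the partner of A20, rose by 1.24, and IKBKG, the NEMO subunit of the kinase complex, by 1.16, while the kinases CHUK and IKBKB were at 0.05 and -0.27 and were not called. MAP3K14, the kinase NIK that starts the RELB and NFKB2 branch, stood at 3.89 to 10.1 in single and 21.3 to 40.5 in double libraries and rose by 2.27 ± 0.20 (SE, adjusted p = 2.11e-11). Its negative regulators TRAF3 and BIRC2 rose as well, by 0.98 and 1.08, but BIRC2 was at 0.62 and not called with the left-out library kept.

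Of 17 cytokines and chemokines 12 were raised and 0 lowered, with a median of 0.86. With the left-out library kept, the count was 7. Only 10 members had a mean of at least 1 CPM in the 8 libraries, and 8 of these were raised, so part of the count rests on few reads. After CXCL8, the largest changes were of IL32 (3, 4, 6 and 2 reads in single and 33 to 68 reads in double libraries), CXCL2, which rose by 2.23 ± 0.24 (SE, adjusted p = 3.66e-09, limma), and CXCL1, which rose by 2.11 ± 0.24 (SE, adjusted p = 1.11e-08). CXCL1, CXCL2 and CXCL3 are neighbors of CXCL8 in 1 chemokine cluster and resemble each other in sequence, so that reads could be shared among them. IL18, which is made as a precursor in epithelial cells, stood at 133 to 196 in single and 461 to 756 in double libraries and rose by 1.66. TNF, a founding member of the family of TNF ligands, rose by 0.73, and CCL5 and IL11 were at 0.02 and -0.19 and were not called. Of 20 other TNF ligands and receptors 2 (10.0%) rose (TNFRSF9 and TNFRSF10A) and 2 (10.0%) fell (TNFRSF10C and NGFR), and their median was -0.05. These shares were near those of all tested genes, 8.55% and 8.93%. The lowered members numbered 5 without siVPS4A+B#2 replicate 4 and 4 without siVPS4A#1 replicate 4, and with total reads 1 rose and 5 fell. The calls on NGFR (-0.43) and on the cytokine CSF1 (0.68, against 1.17) were lost with the left-out library kept.

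Start-site regions of 3 raised genes with a match to the NF-kB consensus, and that of CXCL8, are printed to show where the motif lies. Each is 300 bases of the gene's own strand, 5′ to 3′, from RefSeq (GRCh38.p14), from 250 bases before the gene start, and capitals mark the NF-kB consensus on either strand or TGACTCA, the AP-1 motif. The positions are chr11:102317234-102317533 (plus) for BIRC3, chr14:35404700-35404999 (minus) for NFKBIA, chr4:74099146-74099445 (minus) for CXCL2 and chr4:73740319-73740618 (plus) for CXCL8.
BIRC3: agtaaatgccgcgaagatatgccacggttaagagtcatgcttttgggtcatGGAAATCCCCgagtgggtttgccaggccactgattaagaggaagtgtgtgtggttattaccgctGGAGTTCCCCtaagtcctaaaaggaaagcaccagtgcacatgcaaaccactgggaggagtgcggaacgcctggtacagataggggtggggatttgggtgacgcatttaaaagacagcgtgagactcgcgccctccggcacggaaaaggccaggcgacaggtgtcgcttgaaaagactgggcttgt
NFKBIA: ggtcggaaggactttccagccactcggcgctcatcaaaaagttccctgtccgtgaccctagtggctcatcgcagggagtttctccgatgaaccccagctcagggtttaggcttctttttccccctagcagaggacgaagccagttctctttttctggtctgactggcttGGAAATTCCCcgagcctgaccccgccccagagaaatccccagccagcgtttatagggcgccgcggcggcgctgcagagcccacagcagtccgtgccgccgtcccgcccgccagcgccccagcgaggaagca
CXCL2: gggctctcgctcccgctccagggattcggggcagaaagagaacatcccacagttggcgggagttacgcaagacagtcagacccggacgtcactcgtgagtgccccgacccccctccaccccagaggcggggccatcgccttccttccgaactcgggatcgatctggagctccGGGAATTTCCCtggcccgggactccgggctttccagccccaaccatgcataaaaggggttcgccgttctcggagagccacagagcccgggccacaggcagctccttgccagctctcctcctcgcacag
CXCL8: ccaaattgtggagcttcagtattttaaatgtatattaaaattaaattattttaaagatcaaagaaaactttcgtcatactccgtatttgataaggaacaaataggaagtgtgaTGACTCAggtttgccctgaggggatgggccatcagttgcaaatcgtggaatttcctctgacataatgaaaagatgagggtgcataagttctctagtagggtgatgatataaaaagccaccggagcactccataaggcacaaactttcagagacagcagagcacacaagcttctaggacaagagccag
BIRC3 had matches 199 and 135 bases before its start, NFKBIA 81 bases before, and CXCL2 overlapping matches on both strands 78 and 77 bases before. CXCL8 had no exact match to this consensus but held TGACTCA 137 bases before its start. It also held tggaatttcc, which differs from the CXCL2 match GGGAATTTCC only in its first base. The lack of an exact match does not show that a site is absent. Of the listed genes with a start region in the table, 6 of 18 NF-kB genes and 6 of 12 cytokines held the consensus, beside 5.72% of all 27305 regions. It was in 69 of 862 raised genes (8.0%), 41 of 875 lowered genes (4.69%) and 686 of 10212 tested genes (6.72%). TGACTCA was in 43 of the raised (4.99%), 16 of the lowered (1.83%) and 309 of the tested genes (3.03%). These are counts of letters and do not show that a factor was bound.

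Genes of the oxidative stress response regulated by NRF2 and genes of heme breakdown rose together. NRF2 is held by KEAP1 and, once free, switches on enzymes for glutathione and NADPH. Of 29 listed members 22 were raised and 1 lowered, with a median of 0.80, and with the left-out library kept 18 were raised and 1 lowered. Behind HMOX1, GCLM and GCLC, the 2 subunits of the first enzyme of glutathione synthesis, rose by 2.95 and 2.02. GCLM stood at 15.8, 15.4, 29.8 and 24.3 in single and at 118, 173, 183 and 166 in double libraries (SE 0.19, adjusted p = 1.48e-15, limma). SRXN1, a repair enzyme of peroxiredoxins, rose by 2.25 ± 0.16 (SE, adjusted p = 7.08e-14), from 41.6 to 49.5 up to 204 to 229. ME1 rose by 1.94, PRDX1 by 1.86 and NQO1, an NADPH-dependent quinone reductase, by 1.47. NFE2L2, which encodes NRF2 itself, was at 0.40 and not called, and the exporter ABCC2 fell by 0.99.

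FTH1 and FTL, the heavy and light chains of the iron store ferritin, were among the most abundant transcripts. FTH1 went from 2878, 3585, 6079 and 4446 to 8776, 10290, 14660 and 9961 and rose by 1.41 ± 0.17 (SE, adjusted p = 6.1e-08, limma). FTL went from 2048, 1909, 3908 and 3188 to 7554, 8170, 7194 and 5225 and rose by 1.45 ± 0.22 (SE, adjusted p = 2.21e-06). Neither overlapped, but the change within batch 4 was 0.71 for FTH1 and 0.42 for FTL, against 1.61 and 1.88 in batch 1 and 2.03 and 1.91 in batch 3. Together with SQSTM1 and HMOX1 they took up 2.28% to 3.37% of the reads of double libraries and 0.62% to 1.2% of those of single libraries. The wider list of iron genes did not share this direction, with 4 of 16 (25.0%) raised, 2 (12.5%) lowered and a median of -0.02. Among all tested genes 8.55% were raised and 8.93% lowered. The transferrin receptor TFRC was at 0.27 and not called.

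SQSTM1, the autophagy receptor p62 that also binds KEAP1 (plus strand of chromosome 5, 179233398 to 179265078), stood at 742, 939.5, 952 and 927 in single and at 5602, 6902, 8774 and 4756 in double libraries. It rose by 2.86 ± 0.16 (SE, adjusted p = 1.72e-17, limma), with no overlap. Of 30 autophagy genes 4 (13.3%) were raised and 2 (6.7%) lowered, where 8.55% and 8.93% of all tested genes were. The raised members numbered 7 without siVPS4A+B#2 replicate 1 and 6 with the left-out library kept. Besides SQSTM1, the receptor OPTN rose by 1.58, GABARAPL1, a partner of such receptors on the autophagosome, by 1.21, and ATG12 by 0.96. The median of the list was 0.23.

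Genes of sterol synthesis and uptake were raised for 24 of 35 members and lowered for 3, with a median of 1.05. The counts were 23 and 1, with a median of 0.85, when the left-out library was kept. These genes are switched on by SREBP2 when the endoplasmic reticulum holds little cholesterol. HMGCS1, which makes the precursor of mevalonate (minus strand of chromosome 5, 43287572 to 43313614), stood at 63.0, 51.0, 78.8 and 91.4 in single and at 416, 809, 832 and 681 in double libraries. Its groups were wide apart, and it rose by 3.35 ± 0.20 (SE, adjusted p = 1.73e-16, limma). INSIG1, the sterol-regulated anchor of the pathway, rose by 2.43, IDI1 by 2.18, FDPS by 2.09 and MSMO1 by 2.07.

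The lowered members included ABCA1 and ABCG1, which export cholesterol. ABCA1 stood at 19.5, 41.7, 22.8 and 25.3 in single and at 7.28, 9.39, 7.53 and 6.01 in double libraries and fell by 1.82 ± 0.23 (SE, adjusted p = 9.94e-08, limma). ABCG1 fell by 0.72, and the reductase TM7SF2 fell by 1.32. With the left-out library kept ABCA1 was still lowered (-1.23), and ABCG1 and TM7SF2 were not called. SREBF2, the gene of SREBP2, was at 0.48 and not called. In the lysosome, where endocytosed cholesterol is freed, NPC1, its exporter, rose by 1.95 ± 0.17 (SE, adjusted p = 1.13e-11), from 30.2 to 32.7 up to 83.9 to 185. The lysosomal galactosidase GLA rose by 1.71. The list of lysosomal and endosomal genes did not move broadly, with 6 of 39 (15.4%) raised, 1 (2.6%) lowered and a median of 0.17. Among all tested genes 8.55% were raised and 8.93% lowered. With total reads 2 members of the list rose and 4 fell.

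Immediate-early genes and AP-1 subunits, which respond fast to growth factor and stress kinases, were raised for 17 of 31 members and lowered for 3, with a median of 0.81. The counts were 15 and 1 with the left-out library kept, and without siVPS4A+B#2 replicate 3, 1 was lowered. ATF3, a stress-induced partner of JUN, stood at 14.8, 21.6, 15.8 and 15.9 in single and at 112, 126, 219.7 and 105 in double libraries and rose by 2.91 ± 0.27 (SE, adjusted p = 3.75e-11, limma). BHLHE40 rose by 2.71, KLF6 by 1.78 and JUNB by 1.58, while JUN and FOS were at 0.34 and 0.64 and were not called. Among phosphatases of the MAP kinases, DUSP1 rose by 1.88 and DUSP5 by 1.49. DUSP6, a target and brake of ERK, went the other way, from 457, 254, 268 and 388 to 162, 107, 67.7 and 132, and fell by 1.52 ± 0.25 (SE, adjusted p = 1.16e-05). The call on DUSP6 was lost with the left-out library kept, at -0.94.

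EGFR, a receptor that ESCRT sorts for degradation, stood at 165, 199, 153 and 151 in single and at 109, 103, 94.2 and 93.7 in double libraries. It fell by 0.77 ± 0.16 (SE, adjusted p = 0.000214, limma), with no overlap. Its ligands EREG and AREG rose by 1.28 and 1.12, and HBEGF by 0.99, as did the receptor MET by 1.26. Calls on HBEGF and MET were lost with the left-out library kept, at 0.69 and 0.53. Of 23 listed genes of this family 5 (21.7%) rose and 2 (8.7%) fell, where 8.55% and 8.93% of all tested genes did. Their median was 0.02, and 3 rose and 1 fell with the left-out library kept. Among targets of YAP and TEAD 8 of 26 (30.8%) rose, CCN1 (by 1.87) among them, and 4 (15.4%) fell, IGFBP3 the most (by 1.78). Targets of Wnt had 3 raised (17.6%) and 4 lowered (23.5%) of 17. DKK1 was up by 1.47, and AXIN2, a feedback inhibitor of the pathway, was down by 0.84 (log2 fold change -0.84). With the left-out library kept DKK1 (0.80) and IGFBP3 (-1.03) were not called, and 5 targets of YAP and TEAD rose and 2 fell. Their lowered members also numbered 2 without siVPS4A#1 replicate 4 or siVPS4A+B#2 replicate 1.

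Genes of antigen presentation by MHC class I were raised for 10 of 20 members and lowered for 0, with a median of 0.55. Relative to siCTRL#1 their median was -0.36 to -0.15 in siVPS4A#1, 0.06 to 0.29 in siVPS4A+B#2 and 0.04 to 0.27 in siVPS4B#2 libraries. siVPS4B#2 alone raised 0 and lowered 0 of them. Its effect on top of siVPS4A#1 was called higher than alone for 4 members and lower for 0. B2M, the invariant light chain, stood at 378 to 449 in single and at 775 to 1001 in double libraries and rose by 1.05 ± 0.13 (SE, adjusted p = 7.29e-08, limma), and TAP2, a subunit of the peptide transporter, rose by 1.02. The class I genes are close in sequence, so that reads could be split among them. The count was 5 with total reads in place of TMM and 5 with the left-out library kept.

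Of 32 interferon-stimulated genes 13 were raised and 1, TRIM22, lowered, with a median of 0.44. siVPS4B#2 alone raised 7 of them and lowered 0. Its effect on top of siVPS4A#1 was called higher than alone for 6 members and lower for 4. Relative to siCTRL#1 their median was 0.28 to 0.49 in siVPS4A#1, 0.18 to 0.66 in siVPS4B#2 and 0.63 to 1.07 in siVPS4A+B#2 libraries. In siVPS4A+B#1 libraries, the other double condition, it was -0.02 to 0.22. OAS3, a sensor of double-stranded RNA, stood at 25.5, 12.7, 30.3 and 26.5 in single and at 87.8, 87.1, 62.6 and 129.5 in double libraries and rose by 2.02 ± 0.23 (SE, adjusted p = 8.99e-09, limma). ISG15, a ubiquitin-like modifier, stood at 312 to 367 and then at 667 to 1008 and rose by 1.22. Other members of this class, IFIT1 at -0.23, IFIT3 at 0.12 and MX1 at 0.03, were not called. Of 21 cytosolic heat shock genes 8 rose and 1 fell, with DNAJB4 the most. With total reads 1 rose, in a fit of these 8 libraries alone 4 rose, and without siVPS4A#1 replicate 4 or siVPS4A+B#2 replicate 1, 5 rose. HSPA1A and HSPA1B, nearly identical genes, are uncertain members of that count.

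Of 39 listed genes of endoplasmic reticulum stress and targets of ATF4, the factor of the amino acid and unfolded protein responses, 16 were raised and 0 lowered, with a median of 0.46, and 13 were raised with the left-out library kept. ASNS, asparagine synthetase (minus strand of chromosome 7, 97480989 to 97501854), stood at 39.2, 21.9, 14.2 and 11.1 in single and at 121, 87.3, 91.9 and 80.6 in double libraries and rose by 2.10 ± 0.27 (SE, adjusted p = 1.21e-07, limma). No double library was below any single one, but siCTRL#1 cells had 208 ± 128 (SD, n = 5), and siVPS4B#2 cells 83.2 ± 61.7 (SD, n = 4), with wide spreads. SLC7A11, the cystine importer, went from 48.3, 31.7, 28.1 and 26.3 to 219.8, 182, 212 and 138 and rose by 2.38 ± 0.25 (SE, adjusted p = 1.4e-09), beside 175 ± 85.3 (SD, n = 5) in siCTRL#1 cells. CHAC1, which degrades glutathione, rose by 2.26 and TRIB3 by 1.66, the latter not called with the left-out library kept (0.94), and ATF4 itself by 1.02. Other raised members were the chaperone HSPA5 and HERPUD1, both by 0.79, and XBP1, by 0.72. The remaining 23 members were not called, among them DDIT3 at 0.22, DDIT4 at 0.37, SESN2 at 0.56 and HYOU1 at 0.18.

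Some genes of the cell cycle rose. Of 39 genes of mitosis and cytokinesis 15 (38.5%) were raised and 0 lowered, with a median of 0.49. Of 45 genes of DNA replication 11 (24.4%) were raised and 0 lowered, with a median of 0.46. Among all tested genes 8.55% were raised. UBE2C, a ubiquitin-conjugating enzyme of the anaphase-promoting complex, stood at 89.6, 91.0, 56.0 and 53.6 in single and at 269.5, 238, 226 and 176 in double libraries and rose by 1.66 ± 0.16 (SE, adjusted p = 2.01e-10, limma). CDC6, which loads the replicative helicase, stood at 23.6, 28.5, 14.8 and 12.6 and then at 39.8, 47.0, 53.5 and 43.0 and rose by 1.14 ± 0.17 (SE, adjusted p = 2.04e-06). For CDC6 both groups were below the 81.1 ± 14.1 (SD, n = 5) of siCTRL#1 cells. MCM5, a helicase subunit, rose by 0.84, but its groups overlapped and the call was lost without siVPS4A+B#2 replicate 1 (0.51, adjusted p = 0.141), without siVPS4A#1 replicate 3 (0.75, adjusted p = 0.0518) and without siVPS4A+B#2 replicate 3 (0.74, adjusted p = 0.0509). Of 42 replication-dependent histone genes 2 (4.8%) rose (H3C13 and H2BC15), a share below the 8.55% of all tested genes, and the median was 0.14. H3C13 was at 0.58 and not called with the left-out library kept.

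These counts rested in part on 1 library. Without siVPS4A#1 replicate 1, the single library with the highest median of each of these lists, 23 mitotic and 26 replication genes were raised, and 5 histone genes. Without siVPS4A+B#2 replicate 3, 18 replication and 5 histone genes were raised, and without siVPS4A+B#2 replicate 4, 4 histone genes. With total reads in place of TMM 7 replication genes rose, and with the left-out library kept 9 mitotic genes did. In a fit of these 8 libraries alone, 8 mitotic and 7 replication genes rose.

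Relative to siCTRL#1, the mitotic genes had a median between -2.27 and -1.36 in the 4 siVPS4A#1 libraries, between -1.54 and -1.03 in the siVPS4A+B#2 libraries and between -0.60 and -0.12 in the siVPS4B#2 libraries. For replication genes these ranges were -1.70 to -0.98, -0.96 to -0.73 and -0.55 to 0.00. Every library of both groups lay below every siCTRL#1 library, and the ranges of the groups overlapped for mitotic genes but not for replication genes. With the other VPS4A duplex, siVPS4A#2 alone, the medians were 0.09 to 0.31 for replication and -0.05 to 0.28 for mitosis. For genes of endoplasmic reticulum stress and ATF4 targets the siVPS4A#1 range was -0.99 to -0.85 and the siVPS4A+B#2 range -0.48 to -0.15, without overlap.

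Of 30 listed targets of p53, 9 were lowered and 1, GDF15, was raised, with a median of -0.33. With the left-out library kept 4 were lowered and the median was -0.06. TP53I3, an oxidoreductase, stood at 23.9, 26.6, 30.1 and 28.1 in single and at 7.28, 4.91, 12.8 and 5.77 in double libraries and fell by 1.78 ± 0.20 (SE, adjusted p = 1.09e-08, limma). The siCTRL#1 cells had 5.80 ± 0.924 (SD, n = 5). FDXR, ferredoxin reductase, went from 309, 419, 242 and 255 to 144, 124, 104 and 108 and fell by 1.38 ± 0.16 (SE, adjusted p = 2.19e-08), beside 111 ± 18.3 (SD, n = 5) in siCTRL#1 cells, and its call was lost with the left-out library kept (-0.70). RRM2B, a p53-inducible subunit of ribonucleotide reductase, fell by 1.20, and XPC, a DNA damage sensor, by 1.02. CDKN1A, the cell cycle inhibitor p21, was not called, with 2194, 2417, 3341 and 3179 in single and 2278, 2422, 1710 and 2008 in double libraries, at -0.36 ± 0.16 (SE, adjusted p = 0.0844), while siCTRL#1 cells had 712 ± 94.6 (SD, n = 5). The median of the list relative to siCTRL#1 was 0.68 to 0.93 in siVPS4A#1 libraries, 0.41 to 0.62 in siVPS4A+B#2 libraries and -0.09 to -0.03 in siVPS4A#2 libraries.

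The largest decrease of all was that of SPARC, a matrix glycoprotein (minus strand of chromosome 5, 151040657 to 151066536). It stood at 209, 141, 95.3 and 202 in single and at 18.4, 9.39, 1.92 and 24.4 in double libraries and fell by 3.81 ± 0.34 (SE, adjusted p = 3.29e-11, limma), with -3.43, -5.60 and -1.92 within batches 1, 3 and 4. The groups did not overlap, and the siCTRL#1 level of 38.5 ± 7.09 (SD, n = 5) lay between them. Several other genes with large decreases had the same order. INPP5D, the inositol phosphatase SHIP1, went from 7.85 to 14.6 down to 0.48 to 1.32, with 3.88 ± 0.872 (SD, n = 5) in siCTRL#1 cells, and fell by 2.62. DEPTOR, an inhibitor of mTOR, went from 14.3 to 33.2 down to 1.76 to 5.29, with 9.52 ± 3.62 (SD, n = 5) in siCTRL#1 cells, and fell by 2.41. PPP1R1B, the phosphatase inhibitor DARPP-32, held 44 to 80 reads in single libraries and 7, 1, 1 and 1 in double libraries. VSNL1, a neuronal calcium sensor, fell by 1.92, ANK1, an ankyrin, by 1.94, and the lipase CEL by 2.29.

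Whether siVPS4B#2 acted differently with and without siVPS4A#1 was tested by subtracting its effect alone (siVPS4B#2 against siCTRL#1) from its effect on top of siVPS4A#1. This test holds no other VPS4A duplex, so loss of VPS4A and other effects of siVPS4A#1 cannot be told apart in it. Alone, the duplex raised 380 genes (3.01%) and lowered 576 (4.56%), VPS4B the most at -3.35. The 2 effects differed upward for 1217 genes (9.64%) and downward for 1090 (8.63%) in limma, and for 733 and 492 with the left-out library kept. Of the 1079 genes raised on top of siVPS4A#1, 65 (6.0%) were also raised by siVPS4B#2 alone, which is 17.1% of the genes raised there, and 55 were lowered. Of the 1128 lowered genes, 124 (11%) were also lowered by siVPS4B#2 alone, or 21.5% of the genes lowered there, and 52 were raised. These comparisons share no library, but they share batches and the duplex.

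The largest positive differences of effect were those of BIRC3 (4.90), TNFRSF9 (4.79), HMOX1 (4.75), CXCL8 (4.50) and ASNS (3.63, adjusted p = 7.29e-10, limma). The effects of siVPS4B#2 alone were 0.06, -0.24, 0.72, 0.02 and -1.53 for these genes. The largest negative difference was that of MYBPH, a myosin-binding protein, at -4.32 (adjusted p = 6.92e-09). It stood at 5.97 ± 5.78 (SD, n = 5) in siCTRL#1, 26.4 ± 12.6 (SD, n = 4) in siVPS4B#2, 2.13 to 8.41 in siVPS4A#1 and 0.338 to 1.28 in siVPS4A+B#2 libraries. The duplex raised MYBPH by 2.37 alone and lowered it in siVPS4A#1 cells, by 1.95. TMT1A, a thiol methyltransferase, had a like pattern at -3.57, with 4.65 ± 1.62 (SD, n = 5), 11.2 ± 2.37 (SD, n = 4), 7.14 to 9.41 and 0.32 to 1.20 in the same order of conditions. SPARC (-3.57), the lipid transporter ABCA12 (-2.88) and the annexin ANXA9 (-2.54) were next among genes whose groups did not overlap, and ANXA9 lost its call for the added duplex with the left-out library kept (-0.43). Mitotic and replication genes were higher than the single effects add up to for 26 of 39 and 22 of 45 members, and p53 targets lower for 14 of 30.

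The same question was asked with other duplexes in other libraries, siVPS4A+B#1 (siVPS4A#2 with siVPS4B#1) against siVPS4A#2, where 1439 genes rose (11.4%) and 1529 fell (12.1%). Of the 1079 genes raised by siVPS4B#2, 492 (45.6%) also rose there, or 34.2% of the genes raised there, and 93 fell. Of the 1128 lowered genes, 317 (28.1%) also fell there, or 20.7% of the genes lowered there, and 46 rose. The correlation of the log2 fold changes was 0.42 across 9680 genes, which are not independent replicates and were read in shared batches. The difference between the pairs was itself called upward for 1276 genes (10.1%) and downward for 1123 (8.89%).

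NF-kB, cytokine, NRF2 and sterol genes were raised in both pairs for part of each list. In siVPS4A+B#1 against siVPS4A#2, 14 of 21 NF-kB genes, 14 of 17 cytokines, 19 of 29 NRF2 genes and 18 of 35 sterol genes were raised. BIRC3 rose by 4.95 here and 5.12 there, and the difference was not called (-0.17, adjusted p = 0.738, limma). HMOX1 rose more here (5.47 against 2.69, difference 2.77, adjusted p = 5.69e-11), as did GCLM (2.95 against 1.99). CXCL8 rose less (4.51 against 5.84, difference -1.33, adjusted p = 0.00496), as did IL32, CSF1, CD68 and NFKB2.

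The pairs differed in cell cycle genes. In siVPS4A+B#1 against siVPS4A#2, 32 of 39 mitotic, 42 of 45 replication and 38 of 42 histone genes fell, where 15, 11 and 2 rose and 0 fell here, and the difference between the pairs was called upward for 37, 43 and 37 of them. CDC6 was at 1.14 here and -1.23 there (difference 2.36, adjusted p = 1.8e-09, limma). Relative to siCTRL#1, the medians of replication genes averaged -0.86 ± 0.10 (SD, n = 4) in siVPS4A+B#2 and -0.88 ± 0.11 (SD, n = 4) in siVPS4A+B#1 libraries, but -1.36 ± 0.32 (SD, n = 4) in siVPS4A#1 and 0.17 ± 0.10 (SD, n = 4) in siVPS4A#2 libraries. ASNS (2.10 here, -1.95 there) and CHAC1 (2.26 and -1.08) had the same contrast, and 24 of 39 ATF4 and unfolded protein response genes were called higher here. EGFR (-0.77 and 1.07), APOBEC3G, a cytidine deaminase (-2.19 and 0.95), and CDKN1A (-0.36 and 1.82, difference -2.18, adjusted p = 1.88e-09, limma) had the opposite order, CDKN1A without a call in siVPS4A+B#2 against siVPS4A#1. Each pair has its own VPS4A duplex in its single condition, so that target loss and other effects of 1 duplex cannot be told apart within a pair.

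Of 38 genes of ESCRT complexes and VPS4 partners, 2 (5.3%) were raised, VPS37B by 0.78 and CHMP2B by 0.66, and 0 were lowered. Among all tested genes 8.55% were raised and 8.93% lowered. The median of the list was 0.10 and turned to -0.07 with total reads. CHMP2B overlapped between the groups, and its call was lost without siVPS4A#1 replicate 4 (0.41, adjusted p = 0.134, limma). CHMP4B, the main filament subunit, was at 0.21, the VPS4 activator VTA1 at -0.09 and IST1 at 0.00, and these were not called.

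Genes of cell death complexes were raised for 7 of 33 (21.2%) and lowered for 3 (9.1%), where 8.55% and 8.93% of all tested genes were. The lowered share was near that of all genes. Their median of 0.11 was -0.04 with total reads, and 3 were raised with the left-out library kept. In a fit of these 8 libraries alone 4 rose and 0 fell, and with total reads 4 rose and 5 fell. Without siVPS4A#1 replicate 4, 1 fell. Besides BIRC3, MAP3K14, BIRC2 and TRAF3, the raised members were CFLAR (0.71), which blocks caspase 8, BIRC5 (0.67) and TRAF2 (0.59). CFLAR overlapped, and its call was lost without siVPS4A+B#2 replicate 2 (0.57, adjusted p = 0.0426, limma). The initiator caspase CASP8 was at 0.46, RIPK1 at 0.08 and MLKL at 0.11, and these were not called. Of 17 BCL2 family genes 4 (23.5%) rose and 1 (5.9%) fell, and the median of 0.08 was -0.10 with total reads. PMAIP1, the BH3-only protein NOXA, stood at 192, 212, 315 and 207 in single and at 488, 602, 489 and 517 in double libraries and rose by 1.13 ± 0.18 (SE, adjusted p = 5.84e-06, limma). MCL1, its anti-apoptotic partner, was at 0.30, and BAX and BBC3 were at -0.38 and 0.07, not called.

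Of the 350 tested members of the GO term inflammatory response 71 rose (20.3%) and 24 fell (6.9%), and of 468 members of positive regulation of programmed cell death 58 rose (12.4%) and 42 fell (9.0%). Among all tested genes 8.55% rose and 8.93% fell, so that the lowered share of the cell death term was near that of all genes. The medians of the terms were 0.05 and 0.06. With total reads the lowered members numbered 38 and 69, and with the left-out library kept 14 and 27. The study chose these terms on these samples, so their counts are not independent evidence.

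Markers of the labelled tissue were present in both groups. EPCAM stood at 379 to 465 in single and at 393 to 526 in double libraries and was not called (0.15), and KRT8, KRT18, CDH1 and CDX2 were between -0.19 and -0.13. Of 10 epithelial markers CLDN4 (0.85) and CLDN7 (0.68) rose, the latter not without siVPS4A#1 replicate 1 (0.53). Markers of endothelium summed to 0.332 to 1.07 CPM in single and 0.169 to 0.842 in double libraries, and those of fibroblasts, COL1A1 and PDGFRB, to 34.2 to 61.2 and 51.4 to 85.4, with no member called. Of the leukocyte markers CD68 and LYZ were tested and summed to 5.22 to 9.73 and 41.0 to 95.6, nearly all of it CD68, which lysosomes of many cell types hold. Of 40 ribosome biogenesis genes, a growth readout, 4 (10.0%) were raised and 1 (2.5%) was lowered, with a median of 0.17. Among all tested genes these shares were 8.55% and 8.93%.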

How the data were processed

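Total RNA was turned into libraries with an amplicon panel of the human transcriptome (Ion AmpliSeq) and sequenced on an Ion Proton. Reads were aligned by the authors to the hg19 panel reference with the Torrent mapper and counted with HTSeq 0.6.0. What they deposited is a signal: for each of 12627 genes, the fraction it takes of a library's reads, and the step from counts to these values is not given in the sources used here. Whole reads were recovered by dividing by the value of 1 read. Of all values 51.4% were printed finely enough for this check, and 100% of those were whole within 0.25 reads. The authors' submission notes also name DESeq2 1.18.1. Amplified reads carry no molecular identifiers, so read floors cover counting error alone.

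Recovered reads of 37 libraries were scaled to reads per 1000000 (CPM) with TMM factors of edgeR 4.0.16, 1 was added and log2 taken. A single limma 3.58.1 model with an intensity trend covered all 12627 genes, with terms for the 9 conditions and for the replicate number. Adjustment followed Benjamini and Hochberg, and a call needed a change of 1.5 times or more with adjusted p below 0.05. The labels give 1 batch per replicate number, and deviations of the compared libraries correlated within numbers 1, 3 and 4 at 0.275, 0.172 and 0.129 over 9680 genes, so libraries were treated as paired by batch.

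The comparison, its members and the gene lists were chosen with earlier results of these data known. Genes were named by rule: both targets, the 15 largest changes in each direction and the 5 largest interactions in each direction among called genes with a mean of at least 5 CPM in the higher group and no overlap, up to 6 called members of each list, and defining members of a list whether called or not. Some genes that the rule gives are not reported here, and PRDX1, DUSP5, TNIP1, TM7SF2 and genes given for their opposite direction in the other pair were chosen after their values were seen. VPS4A and VPS4B were also compared by a 2-sided exact permutation test. Alternatives were edgeR's quasi-likelihood test and DESeq2 1.42.0 on the recovered reads, limma's treat, other thresholds, scalings, pseudocounts and filters, no block, other sets of libraries, and fits without each library. The fits were tested on simulated data. Symbols came from RefSeq for 12474 genes and from the study's datasets for 9. Gene coordinates are from GENCODE on GRCh37, and start regions from RefSeq on GRCh38.p14. R 4.3.3 and Python 3.11.15 were used.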

Additional observations from a re-analysis of the deposited data

Results flagged for a closer look

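Of 312 groups of 4 libraries tested over 156 named genes, 22 (7.1%) held 1 library that stood apart by Dixon's rule, where chance flags about 1 in 20. All values here are CPM. In siVPS4A#1 these were VPS4A (3.52, replicate 1), CXCL8 (4.39, replicate 3), SLCO2B1 (0.213, replicate 1), NR4A1 (5.65, replicate 1), ATF3 (21.6, replicate 3), SQSTM1 (742, replicate 1), CSF1 (8.63, replicate 4), PMAIP1 (315, replicate 4), ACAT2 (12.5, replicate 4), TRIM22 (2.88, replicate 3), CHAC1 (41.2, replicate 1), SLC7A5 (462, replicate 1), AREG (103, replicate 3) and STEAP1 (5.14, replicate 3). In siVPS4A+B#2 these were CXCL8 (56.9, replicate 3), PPP1R1B (1.18, replicate 1), CHMP2B (221, replicate 4), FNIP2 (10.4, replicate 3), HLA-F (11.7, replicate 1), TRIB3 (119, replicate 3), TFR2 (11.1, replicate 4) and H3C13 (12.5, replicate 1). 

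The effect of siVPS4B#2 differed with and without siVPS4A#1 in limma's test of the interaction for 1217 genes upward and 1090 downward, with the largest differences, on the log2 scale, in BIRC3 (4.90), TNFRSF9 (4.79), HMOX1 (4.75), CXCL8 (4.50), ASNS (3.63), MYBPH (-4.32), TMT1A (-3.57), SPARC (-3.57), ABCA12 (-2.88) and ANXA9 (-2.54). The addition of VPS4B loss differed between the pairs of duplexes for 1276 genes upward and 1123 downward. Among named genes called in opposite directions in the pairs were APOBEC3G (-3.14), ASNS (4.05), HRK (1.53), LAMP3 (1.40), CENPA (1.86), CCNA2 (2.00), KIF23 (1.74), CCNB2 (1.95), CDC6 (2.36), RRM2 (2.17), CDT1 (1.72), MCM5 (2.24), CHAC1 (3.35), HSPE1 (1.25), EGFR (-1.84), CCN2 (2.12), H3C13 (1.84) and H2BC15 (2.44), given as the log2 fold change of siVPS4A+B#2 over siVPS4A#1 minus that of siVPS4A+B#1 over siVPS4A#2.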

How the results depend on the processing

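The 156 called genes followed through 20 alternatives all kept their direction, with 251 of 3119 values no longer called. The genes were called in these same libraries and the alternatives refit them, so the kept direction follows in part from the choice of genes. The settings with the most lost calls were treat (67), a fold change of at least 2 (55) and the left-out library kept (29). With treat, which tests for a change beyond 1.5-fold, 190 genes were raised and 135 lowered by the added duplex, 170 and 110 differed in the interaction, 5 and 23 changed with siVPS4B#2 alone, 400 and 300 in siVPS4A+B#1 against siVPS4A#2, and 247 and 136 between the pairs. At a fold change of at least 2 the same counts were 299 and 264, 463 and 390, 42 and 85, 493 and 460, and 593 and 419. Total reads in place of TMM gave 649 raised and 1863 lowered genes, among them 649 and 1128 of those first called. Keeping the library labelled siVPS4A#1 replicate 2 gave 635 lowered genes (529 shared) and interactions of 733 and 492. Without the replicate block, 1038 genes were raised and 1047 lowered, so the paired fit changed neither count by over 1.5 times, and edgeR called 1149 and 1216 and DESeq2 1142 and 1178. Leaving out each library in turn gave 1009 to 1219 raised and 1065 to 1274 lowered genes, 1003 to 1266 and 975 to 1115 interactions. Depth limits low genes most, since 3 reads are up to 0.589 CPM in siVPS4A+B#2 libraries and VPS4B rests on 7 to 9 reads. Each VPS4A duplex stands alone in its pair, 1 batch of each group has no partner, and the fold changes of low genes depend on the pseudocount.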
